A study of Mus musculus with 11 samples.

Results

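The genes described here are 2 groups that mark the tooth-facing gum epithelium: the junctional epithelium genes Odam and Amtn, and the simple-epithelium keratin genes Krt7, Krt8, Krt18, Krt19 and Krt23. They were chosen by gene symbol. All 7 are listed among 55414 genes, and 6 of them are among the 19170 genes with values, since Amtn is listed without a value. RNA of the gingival epithelium, separated from the lamina propria with dispase, was sequenced from 5 mice given PBS and 6 given diphtheria toxin (DT). All were male Langerin-DTR mice, including the PBS mice, which carry the toxin receptor under the langerin promoter, so DT kills their Langerhans cells (LCs), the antigen-presenting cells of the epithelium. Each mouse was injected at 17, 24 and 31 days of age, and the tissue was taken at 8 weeks. The comparison asks whether losing LCs early in life leaves a mark on the epithelium. Because the toxin was not given after day 31, it describes epithelium some weeks later. With the same injections, the study reported that gingival LCs were first absent and then regained normal frequencies by the age sampled here.

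The junctional epithelium is the collar of gum epithelium that seals the gingiva to the tooth. It first forms from the enamel epithelium that covers a tooth before it erupts. Odam and Amtn encode secreted calcium-binding phosphoproteins that are laid down in the basal lamina facing the enamel, and both are also made by maturation-stage ameloblasts. Keratins assemble as pairs of a type I and a type II chain. Krt7 and Krt8 encode type II chains, and Krt18, Krt19 and Krt23 encode type I chains, of which Krt8 and Krt18 are the classic pair of simple, single-layered epithelia. The junctional epithelium keeps such keratins, while the rest of the oral gingiva is stratified and is built from the Krt5, Krt14, Krt4, Krt13 and Krt76 family of layer keratins.

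Each library held between 17509328 and 24325513 reads counted in genes, recovered from the deposited values. PBS 3 and PBS 5 stood apart from the other PBS mice on the first principal component (scores of 17.2 and 20.9 against -13.0 to -11.9), which held 36.0% of the variance, and the DT mice lay between -9.09 and 10.5. Cd207, which encodes langerin, differed by -0.19 on the log2 scale between DT and PBS (SE 0.30, limma adjusted p = 0.853). It had 11 to 41 reads per library. The median of Cd207 was 18.5 normalized counts in PBS and 18.3 in DT. With 1 mouse left out, its log2 difference ranged from -0.44 to 0.055, the latter without PBS 5. All 7 Langerhans cell markers read below, Cd207 among them, had log2 differences under 0 (median -0.35), while 47.3% of all genes tested were above 0. With limma 3 of them had an unadjusted p under 0.05, against 11.5% of all genes, and the smallest adjusted p was 0.313. Of 10 leukocyte markers, which share some genes with these, 8 were under 0 (median -0.27, smallest adjusted p = 0.307 by limma). In bulk tissue, fewer cells of a type and less RNA per cell cannot be told apart.

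No difference between DT and PBS mice was detected for the 6 measured genes. With limma on log2(normalized count + 1) and Benjamini-Hochberg adjustment over all 19170 genes, 0 of 6 passed an adjusted p of 0.1, against 0.558% of all genes. The adjusted p-values ranged from 0.680 to 0.955. At an unadjusted p under 0.05 the count was also 0, against 11.5% of all genes. The values of the DT and PBS mice overlapped for all 6, whereas the groups did not overlap for 2.11% of the 13477 genes whose mean was 10 normalized counts or more (called expressed below). The log2 difference was above 0 for 2 genes and below 0 for 4, with a median of -0.06 against -0.01 for all genes tested.

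**Figure D1:**
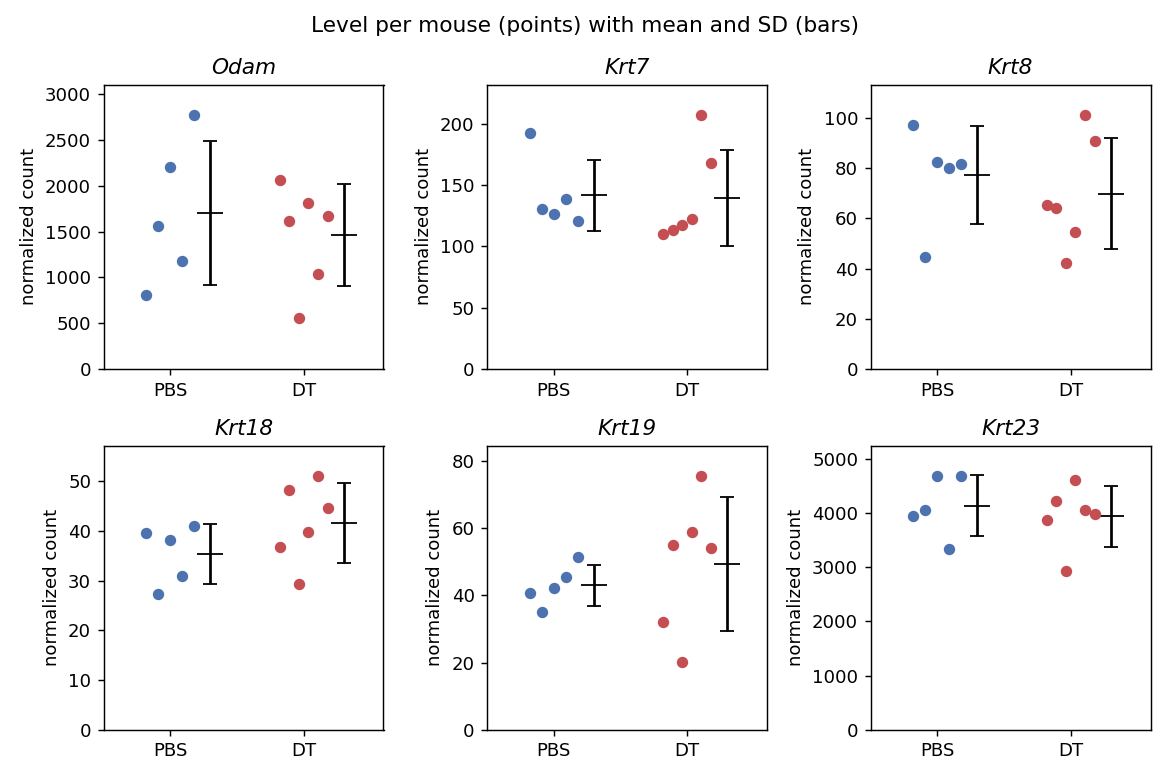
Normalized count (reads divided by the library's size factor, linear axis from 0) of each gene in each mouse, PBS in blue (5 mice) and DT in red (6 mice), with the mean and SD as a black bar. The groups overlap in every panel, and Odam spans from 556 to 2769 while Krt23 spans only from 2923 to 4683.

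Odam, odontogenic ameloblast-associated protein, is at chr5:87885029-87894174 on the plus strand of GRCm38. Its normalized counts in PBS 1 to 5 were 812, 1561, 2206, 1183 and 2769, and in the DT mice the lowest was 556, the median 1642 and the highest 2067. The highest level was thus in a PBS mouse and the lowest in a DT mouse, and each group held both low and high mice. The mean was 1706 ± 786 in PBS (SD, n = 5) and 1459 ± 559 in DT (SD, n = 6). On the log2 scale the difference was -0.22 (SE 0.33, 95% interval -0.91 to 0.47, adjusted p = 0.850 by limma), so that a fold between 0.533 and 1.39 lies within the interval. Without DT 3, the mouse with the lowest level, the difference was 0.04. Odam varied 4.98-fold over the 11 mice. Its SD within groups, 0.71 on the log2 scale, was larger than that of 97.7% of the expressed genes, while read counting alone gives an SD of 0.04 at this level.

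Amtn, amelotin, is at chr5:88376108-88385916 on the same strand and has no value. The study left out genes whose counts over all libraries summed to under 10, and every gene with values here holds at least 10 reads over the 11 libraries. No level or difference is given for it.

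Krt23, a type I keratin of glands and simple epithelia, was the most abundant of the 5 keratins, at chr11:99477974-99493137 on the minus strand. Its normalized counts in PBS 1 to 5 were 3939, 4055, 4679, 3337 and 4683, and the DT mice ranged from 2923 through a median of 4025 to 4602. DT 3 was the lowest of all mice here as well. The means were 4138 ± 565 in PBS (SD, n = 5) and 3943 ± 560 in DT (SD, n = 6), and the log2 difference of -0.07 was the most precise of the 6 (SE 0.10, 95% interval -0.29 to 0.15, limma adjusted p = 0.844). A fold below 0.815 or above 1.11 lies outside that interval. Without DT 3 the log2 difference was 0.01.

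Krt7, the type II keratin of ductal and glandular epithelia, is at chr15:101411043-101430313 on the plus strand. PBS 1 to 5 had normalized counts of 192, 130, 127, 138 and 121, and the DT mice ranged from 110 through a median of 120 to 207. PBS 1 stood above the other PBS mice, and DT 5 and DT 6 (207 and 168) stood above the other DT mice. The log2 difference was -0.04 (SE 0.17, 95% interval -0.39 to 0.31, limma adjusted p = 0.955), and it was above 0 without PBS 1 (0.07).

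Krt8 and Krt18 lie side by side, at chr15:101996698-102004482 on the minus strand and chr15:102028180-102032027 on the plus strand. Krt8 had normalized counts of 97.3, 44.7, 82.5, 80.1 and 81.8 in PBS 1 to 5, and 42.3, 64.8 and 101 were the lowest, median and highest of the DT mice. PBS 2 was far below the other PBS mice, and DT 3 was the lowest of all. For Krt8 the log2 difference was -0.16 (SE 0.23, 95% interval -0.64 to 0.32, limma adjusted p = 0.838). It was -0.34 without PBS 2, -0.28 without DT 5, -0.25 without DT 6, -0.07 without PBS 1, -0.10 without DT 4 and -0.03 without DT 3. A pseudogene named Krt8-ps is listed without a value.

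Krt18 had normalized counts of 39.6, 27.2, 38.2, 30.96 and 40.9 in PBS 1 to 5, and the DT mice ranged from 29.2 through a median of 42.2 to 51.0. DT 2, DT 5 and DT 6 were above every PBS mouse, and DT 3 was among the lowest. Its log2 difference of 0.22 had the smallest p of the 6 genes (SE 0.18, 95% interval -0.16 to 0.60, limma adjusted p = 0.680, unadjusted p = 0.233 by limma). With 28 to 57 reads per library, the SD expected from counting alone, 0.24 on the log2 scale, was close to the SD of 0.27 seen within groups.

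Krt19, the smallest type I keratin and one that has no fixed type II partner, is at chr11:100140810-100148665 on the minus strand. Its normalized counts were 40.7, 35.0, 42.2, 45.5 and 51.4 in PBS 1 to 5, and 20.1, 54.6 and 75.6 were the lowest, median and highest in DT. The DT mice therefore spread to both sides of all PBS mice, with SDs of 6.07 in PBS (n = 5) and 19.9 in DT (n = 6). The difference was 0.09 on the log2 scale (SE 0.27, 95% interval -0.48 to 0.66, limma adjusted p = 0.935), and -0.06 without DT 5, the highest mouse.

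**Figure D2:**
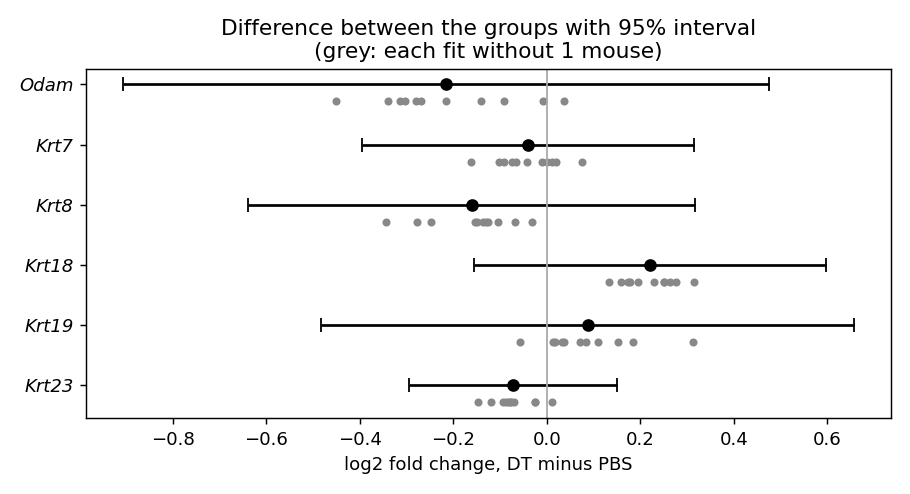
Log2 difference between DT and PBS of the 6 genes with its 95% interval (black; limma on log2(normalized count + 1), 11 mice), and the value of each fit that leaves out 1 mouse (grey). Every interval holds 0, and the interval of Odam, -0.91 to 0.47, is the widest while that of Krt23, -0.29 to 0.15, is the narrowest.

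Levels of different genes are set side by side per length of transcript. The labels name a kit for whole mRNA, for which counts grow with length, whereas the methods trim reads by the guide of a kit that reads transcript ends (QuantSeq), for which they do not. As the mean normalized count per kb of the longest principal transcript over the 11 mice, Krt23 was at 2576 and Odam at 1147, and the other 4 were much lower, with Krt8 at 37.4, Krt7 at 34.4, Krt19 at 29.5 and Krt18 at 27.0. Not divided by length, the means were 4032 for Krt23, 1571 for Odam, 141 for Krt7, 73.2 for Krt8, 46.4 for Krt19 and 38.8 for Krt18, so Krt7 and Krt8 change places and the rest of the order stays. The means per kb of those 4 were within 1.5 times of each other. In single mice their order was not always the same and they could lie further apart, as in DT 3, with Krt7 at 28.8 and Krt19 at 12.8 per kb. Among 42 keratin genes with a level per kb, Krt23 ranked 16 and the others ranked 23, 24, 25 and 27. Krt13, the layer keratin with the highest level, was at 539721 per kb. Keratin transcripts were between 16.3% and 18.5% of all normalized counts in each mouse. The 5 simple keratins were 0.0818% to 0.150% of the keratin counts, and without Krt23 they were 0.00547% to 0.0116%. The ratio of Krt8 to Krt18 per kb was 1.59 ± 0.276 in PBS (SD, n = 5) and 1.22 ± 0.230 in DT (SD, n = 6), and the lowest and highest ratios of all mice were 0.979 and 1.90. This ratio was formed after the levels were seen, and no test is given for it.

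**Figure D3:**
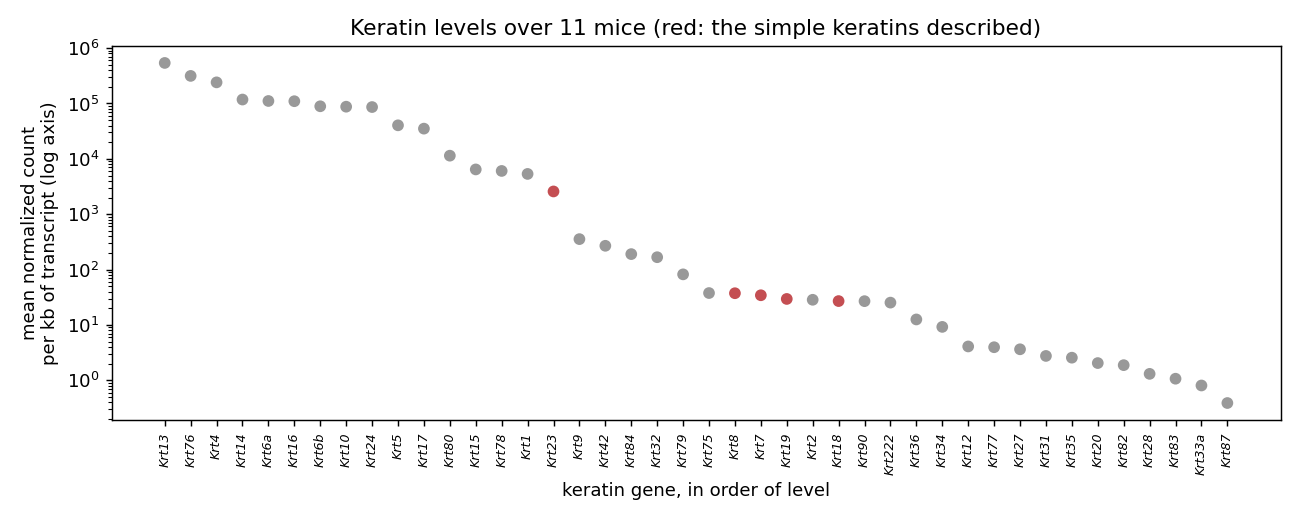
Mean normalized count per kb of transcript over 11 mice (log axis) of the 42 keratin genes with a level per kb, in order of level, with the 5 simple keratins in red. Krt23 is the highest red point at 2576, and Krt8, Krt7, Krt19 and Krt18 lie between 37.4 and 27.0, far below Krt13 at 539721.

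Across the 11 mice the genes did not vary as 1 group. Pearson correlations of log2(normalized count + 1) over the 15 pairs ranged from -0.40 (Odam and Krt7) to 0.79 (Odam and Krt23), and 2 pairs passed an adjusted permutation p of 0.05. Odam and Krt23 had r = 0.79 (permutation p = 0.00390, adjusted p = 0.0307) and Spearman's rho = 0.68 (permutation p = 0.0247, adjusted p = 0.124). Without PBS 1 and DT 3, the mice farthest from the median of Odam, r was 0.66. Within the 6 DT mice it was 0.82 (exact permutation p = 0.0944), and no value is given within the 5 PBS mice, since 6 was the smallest number used for a correlation. Krt18 and Krt19 had r = 0.78 (permutation p = 0.00409, adjusted p = 0.0307) and rho = 0.85 (permutation p = 0.00163, adjusted p = 0.0244). For this pair r was 0.68 without PBS 2 and DT 3 and 0.93 within the DT mice (exact permutation p = 0.00833). The count of 2 pairs depends on single mice, since no pair passed when PBS 2, PBS 3, PBS 5, DT 3, DT 5 or DT 6 was left out.

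The chromosomal neighbours Krt8 and Krt18 had r = 0.66 (permutation p = 0.0268, adjusted p = 0.0965) and rho = 0.59 (permutation p = 0.0596, adjusted p = 0.214). Without PBS 2 and DT 3, the mice farthest from the median of Krt8, r was 0.21, so the relation over all mice rests on them. Within the 6 DT mice r was 0.83 (exact permutation p = 0.0403), and over deviations from the group means, which set aside any difference between DT and PBS, it was also 0.83 and passed the adjusted p of 0.05. The pair passed as well without PBS 4 (r = 0.77) and without DT 2 (r = 0.77). Krt7 and Krt8, both type II, had r = 0.68 (permutation p = 0.0211, adjusted p = 0.0965) and rho = 0.68 (permutation p = 0.0248, adjusted p = 0.124), and r was 0.46 without PBS 1 and DT 5 and 0.82 within the DT mice (exact permutation p = 0.0611). Odam and Krt7 tended to opposite sides of their means, with r = -0.40 (permutation p = 0.223, adjusted p = 0.321) and rho = -0.41 (permutation p = 0.213, adjusted p = 0.400).

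**Figure D4:**
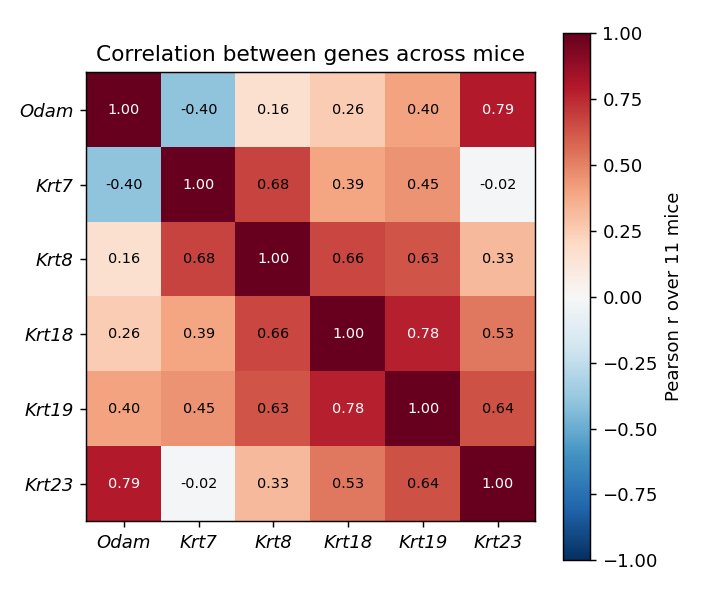
Pearson correlation over 11 mice between the log2(normalized count + 1) values of each pair of the 6 genes, from blue (-1) to red (1). Odam is close to Krt23 (0.79) and has a negative value with Krt7 (-0.40), and Krt18 and Krt19 share 0.78.

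The genes whose levels followed those of Odam most closely included a gene beside it and others known from enamel formation. Ranked by Pearson's r over 11 mice among 13471 other expressed genes, the first 5 were BC037156 (r = 0.993, rho = 0.991), Fam20c (r = 0.978, rho = 1.000), Ggt1 (r = 0.975, rho = 0.964), Odaph (r = 0.973, rho = 0.982) and U90926 (r = 0.970, rho = 0.955). They were chosen by r, so no p is given, and the points share libraries and depth. For comparison, the median r of Odam with all ranked genes was -0.02 and its 99th percentile was 0.799.

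BC037156 carries the RefSeq synonym FDC-SP, the follicular dendritic cell secreted protein, a small secreted phosphoprotein of the same gene family as Odam that is also made in junctional epithelium. It is at chr5:87908779-87914171, 14605 bases after the end of Odam and on the same strand. Its normalized counts in PBS 1 to 5 were 3874, 6370, 8864, 4598 and 11712, and the DT mice ranged from 2476 to 8424. As for Odam, PBS 5 was the highest and DT 3 the lowest, and r was 0.989 without PBS 1 and DT 3 and 0.996 within the DT mice. Of the 20 genes annotated from Csn1s1 to Enam around Odam, 4 have values and 3 are expressed by the same measure. Amtn, Ambn (ameloblastin) and Enam (enamelin), which encode enamel matrix or basal lamina proteins of the same family, are listed without a value.

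Fam20c encodes the Golgi kinase that phosphorylates secreted calcium-binding phosphoproteins, and it put the 11 mice in the same order as Odam. It ranged from 93.7 normalized counts in DT 3 to 238 in PBS 5. Odaph, odontogenesis associated phosphoprotein, is needed for enamel mineralization and ranged from 142 in DT 3 to 1044 in PBS 5. Ggt1, a cell-surface enzyme that breaks down glutathione, ranged from 104 in DT 3 to 492 in PBS 5, and U90926, a long noncoding RNA, from 135 in DT 3 to 965 in PBS 5. On chromosome 5 lie 4 of the 5, all except Ggt1, while that chromosome holds 6.42% of the expressed genes. Fam20c is 50860340 bases away from Odam, and Odaph is 4093301 bases away.

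None of these 5 genes passed the adjusted p of 0.1 between DT and PBS with limma. The log2 difference was -0.20 for BC037156 (SE 0.30, adjusted p = 0.853), -0.05 for Fam20c (SE 0.23, adjusted p = 0.962) and -0.26 for Odaph (SE 0.38, adjusted p = 0.842). For Ggt1 and U90926 it was -0.0012 (SE 0.34, adjusted p = 0.999) and -0.11 (SE 0.43, adjusted p = 0.953). Without DT 3 all 5 values were above 0, between 0.04 and 0.28.

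**Figure D5:**
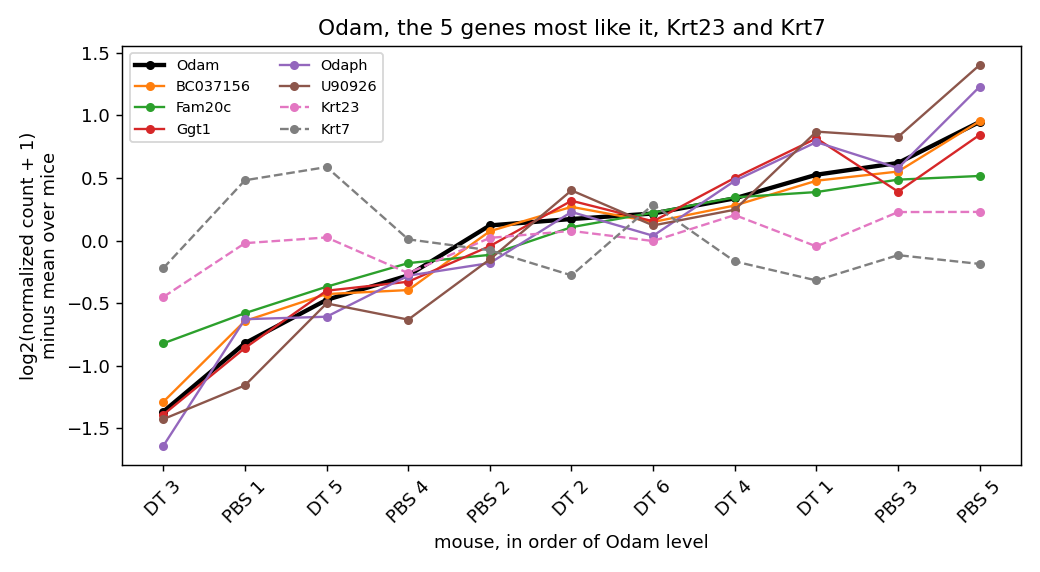
Log2(normalized count + 1) minus the gene's mean over 11 mice (y axis) for each mouse, in order of Odam level (x axis), for Odam (thick black), the 5 genes most like it (solid), Krt23 and Krt7 (dashed). The 5 solid lines rise with Odam from DT 3 to PBS 5, Krt23 rises less, Krt7 does not, and both the lower and the upper part of the order hold PBS and DT mice, with PBS 3 and PBS 5 at its end.

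The promoters of Odam, of the 3 protein-coding genes of chromosome 5 that varied with it and of Krt23, the member that varied most like it, are shown from 250 bases before to 20 after the start site of RefSeq (GRCm38.p6). Capitals mark matches to 4 motifs. The core sequence bound by Runx factors was searched as TGTGGT on both strands. The site of AP-1 factors was searched as TGANTCA on both strands. The Sp1 box was searched as GGGCGG on both strands, and the TATA box as TATAAA on the sense strand only. The windows are chr5:87884760-87885029, plus strand for Odam, chr5:87908529-87908798, plus strand for BC037156, chr5:91987223-91987492, plus strand for Odaph, chr5:138754831-138755100, plus strand for Fam20c and chr11:99493101-99493370, minus strand for Krt23.
Odam: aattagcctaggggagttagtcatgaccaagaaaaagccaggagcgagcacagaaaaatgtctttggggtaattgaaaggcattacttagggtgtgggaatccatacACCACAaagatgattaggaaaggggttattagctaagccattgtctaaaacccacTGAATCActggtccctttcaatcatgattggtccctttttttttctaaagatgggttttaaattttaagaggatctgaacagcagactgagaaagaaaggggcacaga
BC037156: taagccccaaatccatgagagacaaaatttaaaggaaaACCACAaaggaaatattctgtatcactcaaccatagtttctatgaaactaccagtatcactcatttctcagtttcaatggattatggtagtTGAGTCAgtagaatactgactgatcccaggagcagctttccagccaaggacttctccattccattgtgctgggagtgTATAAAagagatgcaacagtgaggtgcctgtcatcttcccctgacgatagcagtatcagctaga
Odaph: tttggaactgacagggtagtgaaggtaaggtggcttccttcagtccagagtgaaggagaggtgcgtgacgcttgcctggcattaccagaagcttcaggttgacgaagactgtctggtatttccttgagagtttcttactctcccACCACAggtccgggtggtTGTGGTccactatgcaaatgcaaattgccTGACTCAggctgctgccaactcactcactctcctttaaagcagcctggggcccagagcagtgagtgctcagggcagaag
Fam20c: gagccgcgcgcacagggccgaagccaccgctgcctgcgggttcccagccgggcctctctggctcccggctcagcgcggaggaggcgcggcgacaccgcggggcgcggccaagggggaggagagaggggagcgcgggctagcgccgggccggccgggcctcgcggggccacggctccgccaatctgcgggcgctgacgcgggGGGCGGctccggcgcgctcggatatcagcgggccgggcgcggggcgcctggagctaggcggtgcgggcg
Krt23: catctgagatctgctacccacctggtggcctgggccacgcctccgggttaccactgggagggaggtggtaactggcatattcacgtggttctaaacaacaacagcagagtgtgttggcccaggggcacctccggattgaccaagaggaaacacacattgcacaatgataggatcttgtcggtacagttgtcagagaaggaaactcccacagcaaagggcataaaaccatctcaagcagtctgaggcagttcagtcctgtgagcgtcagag

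The windows of Odam, BC037156 and Odaph each held both a Runx core and an AP-1 site as searched, a combination found in 1.18% of the 32851 promoters of the table. The AP-1 pattern allows any middle base, which was A in Odam, G in BC037156 and C in Odaph. Odam would not match a pattern with only C or G there, and no count was made for it. A Runx core alone was in 15.1% and an AP-1 site in 7.23%. Odam had its Runx core at -143 and its AP-1 site at -88, BC037156 at -212 and -121, and Odaph had Runx cores at -106 and -88 and an AP-1 site at -59. Fam20c held neither and had 1 Sp1 box, as 34.1% of promoters do, in a window of 81.1% GC against 40.7% in Odam. Krt23 held none of the 4 motifs, and neither did Amtn and Krt18. Krt7 held 4 Sp1 boxes, and Krt8 held a TATA box that overlaps its annotated start site, while 7.91% of all windows hold one. Of the 7 genes, 6 were in the promoter table, and Krt19 was not. A match describes letters in a window and says nothing of binding.

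The genes most like the keratins were less close in level and of more mixed function. For Krt23 the first 5 were Capn9 (r = 0.945), a calpain protease, Epcam (0.942), an epithelial adhesion molecule, Sqor (0.933), a mitochondrial sulfide oxidase, Ggt7 (0.923) and Twf2 (0.922), an actin-binding protein, and each was lowest in DT 3. For Krt8 they included Clca3b (0.922), Casp9 (0.890), Stra6 (0.886) and Glis3 (0.867). For Krt7 they included Arl5a (0.896), Rabgap1l (0.886), Rbl1 (0.868) and Sirt5 (0.850). For Krt18 they were Lmod2 (0.904), Pik3cb (0.890), Cenpq (0.859), Mid1ip1 (0.847) and Ube2h (0.835). Krt19 had Abraxas2 (0.924), Fzd1 (0.844), Adh7 (0.841), Gm5949 (0.839) and Add3 (0.835). Each r is over 11 mice among 13471 genes, from which the members themselves were left out. No other keratin gene was among the first 5 of any member.

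Other genes of the junctional epithelium and of keratin filaments were read from the same fit in 6 lists. Of 99 genes, 89 have values and 0 passed the adjusted p of 0.1, against 0.558% of all genes. At an unadjusted p under 0.05 there were 9 of the 89, a share near the 11.5% of all genes, and the smallest adjusted p was 0.126. With weights per mouse 2 genes passed, as did 2 without PBS 4, 3 without PBS 5 and 1 without DT 1. The same settings gave 189, 170, 259 and 61 genes among all 19170, against 107 with all mice weighted alike. The median log2 difference of the 89 genes was 0.05, against -0.01 for all genes tested. For the counts of signs in the lists below, 47.3% of all genes tested were above 0.

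Among secreted calcium-binding phosphoproteins other than Odam and Amtn, 7 of 17 genes have values and 3 are expressed. The log2 difference was above 0 for 4 and below 0 for 3, with a median of 0.10. Sparc, a matrix protein that is an ancestral relative of this family, had the highest mean, 1351 normalized counts, with a difference of 0.10 (adjusted p = 0.636 by limma). Sparcl1 had a mean of 23.5 and a difference of -0.46 (limma adjusted p = 0.572), and Csn3, the kappa-casein gene beside BC037156, was near 1 normalized count in both groups (0.605 in PBS and 1.66 in DT). The list entry Fdcsp has no value under that symbol and is BC037156 by its synonym, a link made after its values were seen.

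Of the 20 genes of simple epithelia, 11 had a log2 difference above 0 and 9 below, with a median of 0.01, and 3 of the 20 had an unadjusted p under 0.05, near the share of 11.5% among all genes. Grhl2, a transcription factor of epithelial junctions, was at 1559 ± 148 normalized counts in PBS (SD, n = 5) and 1922 ± 181 in DT (SD, n = 6), a log2 difference of 0.30 (SE 0.07, limma adjusted p = 0.126). It passed without PBS 4, without DT 1 and with weights per mouse. Cldn4, a tight-junction claudin, was at 2133 ± 256 in PBS (SD, n = 5) and 2722 ± 341 in DT (SD, n = 6), a log2 difference of 0.35 (SE 0.09, limma adjusted p = 0.145). Cldn4 passed without PBS 5 and with weights per mouse. In gingiva of mice depleted in the same way, the study reported no effect on Cldn4 by RT-PCR or on its protein by staining. Elf3, an epithelial transcription factor, differed by -0.39 (SE 0.17, limma adjusted p = 0.386), and Cd24a, the gene with the highest mean in the list, by 0.06 (limma adjusted p = 0.745).

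Attachment genes, which encode laminin-332, its integrin receptors and hemidesmosome proteins, had 9 of 11 log2 differences above 0 and a median of 0.06. Of all genes tested 47.3% were above 0, and 0 of the 11 passed the adjusted p of 0.1 with limma. Lamb3, the laminin beta-3 chain, differed by 0.13 (limma adjusted p = 0.326) and Itga6, the alpha-6 integrin, by 0.11 (limma adjusted p = 0.446). Col17a1, a hemidesmosome collagen, had the highest mean, 19558, and a difference of 0.03 (limma adjusted p = 0.919). In the list of epithelial defence genes 10 of 17 were above 0, with a median of 0.16. The beta-defensin Defb14 differed by 0.35 (limma adjusted p = 0.258) and Slpi, the secretory leukocyte protease inhibitor, by 0.24 (limma adjusted p = 0.446). Slpi passed without PBS 5.

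Among the layer and wound keratins 10 of 17 were above 0, with a median of 0.02. Krt15, a keratin of basal cells, differed by 0.26 (limma adjusted p = 0.213) and passed without PBS 4. Krt10, of suprabasal cells, differed by 0.20 (limma adjusted p = 0.607) and Krt13 by 0.10 (limma adjusted p = 0.836). Among partners and regulators of keratin filaments 11 of 17 were above 0, with a median of 0.05. The smallest p-values there were those of Klf4, a transcription factor of differentiation, with a difference of 0.16 (limma adjusted p = 0.307), and the small heat shock protein gene Hspb1, with 0.13 (limma adjusted p = 0.390). Dsp, desmoplakin, which anchors keratin filaments in desmosomes, had the highest mean, 200830, and differed by 0.05 (limma adjusted p = 0.902).

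Markers of other cells were read beside these genes because Odam and the simple keratins are not made by junctional epithelium alone. For ameloblasts, 6 of 11 markers have values. The defining enamel genes Ambn, Enam and Mmp20 are listed without a value, Amelx had a mean of 0.863 normalized counts and Klk4 of 18.8. The summed level of the list was 2263 to 3561 in PBS and 2110 to 2980 in DT, and Sp6, a transcription factor that is also in the list of keratin regulators, made up most of it. This sum varied with Odam (r = 0.90, permutation p = 0.000230, adjusted p = 0.00759, rho = 0.95). Odaph, chosen above for its r with Odam in these same mice, is part of the sum, so this p is not independent of that choice. Odaph ranged from 142 in DT 3 to 1044 in PBS 5, while Sp6 ranged only from 1589 in DT to 2161 in PBS. The sum also varied with Krt23 (r = 0.84, permutation p = 0.00127, adjusted p = 0.0234, rho = 0.82). Without the 2 mice farthest from the median, r was 0.89 for Odam and 0.87 for Krt23.

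For Merkel cells, which hold Krt8, Krt18 and Krt20, all 11 markers have values, with Krt20 at 3.95 and Atoh1 at 10.3, and the sum was 2853 to 3280 in PBS and 2960 to 3612 in DT. Its r with Odam was -0.76, which did not pass the adjusted p of 0.05 (permutation p = 0.00645, adjusted p = 0.0608; rho = -0.74), and the sum is mostly Sox2, with a mean of 2113. For salivary glands, where Krt7, Krt8, Krt18 and Krt19 mark ducts, 14 of 21 markers have values and 4 are expressed. The 4 were Muc5b at 124, Lpo at 56.5, Egf at 41.5 and Dcpp3 at 10.5, while Aqp5 was at 3.05 and Bpifa2 at 0.894. Muc5b differed by -0.65 on the log2 scale (limma adjusted p = 0.375). The sum was 246 to 354 in PBS and 163 to 400 in DT.

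For leukocytes, all 10 markers have values and the sum was 1788 to 4680 in PBS and 1319 to 3090 in DT, mostly Cd74, S100a8 and H2-Ab1. It varied with Krt23 (r = 0.91, permutation p = 0.00004, adjusted p = 0.00264; rho = 0.90) and with Odam (r = 0.80, permutation p = 0.00290, adjusted p = 0.0383; rho = 0.74). Without the 2 mice farthest from the median these values were 0.84 and 0.62. S100a8 is also in the list of epithelial defence genes, so the leukocyte sum may not come from leukocytes alone. The sum of the 7 Langerhans cell markers, which share 4 genes with the leukocyte list and include Epcam, was 2408 to 5082 in PBS and 1840 to 3186 in DT, and it varied with Krt23 (r = 0.85, permutation p = 0.00142, adjusted p = 0.0234; rho = 0.85). With Odam its r was 0.77, which did not pass (permutation p = 0.00635, adjusted p = 0.0608; rho = 0.74). Epcam is also in the oral epithelium list and was chosen above for its r with Krt23 in these same mice. The p of this sum with Krt23 is therefore not independent of that choice. These p-values were adjusted over 66 relations of 6 genes with 11 lists. The part of these cells in the levels of Odam and Krt23 was not tested.

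The other lists were lower or flat. Sums in PBS and DT were 153 to 197 and 135 to 177 for taste cells, 1711 to 1934 and 1536 to 2134 for fibroblasts, 78.7 to 121 and 69.5 to 145 for endothelium, 58.3 to 111 and 56.9 to 111 for muscle, and 72.9 to 168 and 75.3 to 186 for bone and tooth mesenchyme. For oral epithelium, whose markers define the labelled tissue, all 10 markers have values, and the sum was 2605420 to 2695850 in PBS and 2627580 to 2868940 in DT.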

How the data were processed

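RNA of 11 mice was sequenced from stranded, polyA-selected libraries. The deposited values are normalized counts: the authors trimmed reads, aligned them with TopHat, counted them per gene with htseq-count, removed genes whose counts summed to less than 10 and scaled the rest by DESeq2 size factors. The methods name GRCm38, whereas the submitters' processing notes name GRCm39, TopHat2 2.1.1, HTSeq 2.01 and DESeq2 1.36.0. The deposited count table also lists genes without a value. A single read is worth the same in all genes of a mouse, and 100% of values came out as whole reads (tolerance 0.1 read). These reads serve for depth and for the SD expected from counting. Positions and lengths are from GENCODE M21 on GRCm38, where 19117 of 19170 identifiers matched.

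Groups were compared by limma 3.58.1 under R 4.3.3 (intensity trend, all 11 mice, no covariate) on log2(normalized count + 1), called at adjusted p under 0.1. Fold changes on this scale understate the change of low genes. The procedure was also run on simulated counts with the same spread for every gene, and its outcome is not given here. That run does not speak for genes as variable as Odam. Correlations used 100000 permutations, or all 720 orders of the 6 DT mice, whose smallest two-sided p is 0.00278. Replicates are separate mice by their labels. Mouse numbers in the titles, by which PBS 5 was taken with DT 5, do not pair the mice (correlations of -0.23 to 0.32 between same-numbered mice).

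Members and lists were chosen with earlier results of these data known. Named were all members, the gene with the highest mean and the 2 with the smallest p of each pathway list, the 5 genes most like each member and Cd207. Some genes that this rule names are not reported here. Elf3, Fdcsp, and the marker genes and locus genes named were added after their values were seen. Alternatives were other pseudocounts, a filter on means, other scalings, weights per mouse, a replicate block and each mouse left out.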

Additional observations from a re-analysis of the deposited data

Results flagged for a closer look

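Krt7 in PBS 1, at 192 normalized counts, lay far above the other 4 PBS mice, which held 121 to 138. The gap to the next mouse was 0.752 of the range of the group, past the critical value of Dixon's test for 5 samples. Of the 12 groups tested (6 genes in PBS and in DT) it was the only one, and chance flags about 1 in 20 groups. Without this mouse the log2 difference of Krt7 between DT and PBS was 0.07 instead of -0.04.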

How the results depend on the processing

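The count of members that passed was 0 under every alternative run. Over all genes 107 passed, 104 to 113 with pseudocounts of 0.5 and 5, a mean of at least 10, TMM scaling and median centring, 189 with weights per mouse, and 27 (without DT 5) to 259 (without PBS 5) with 1 mouse left out. Same-numbered mice are not labelled as pairs. With a replicate block by the mouse number in the titles, in which DT 6 has no partner and adds nothing to the difference, 35 genes passed, 0 of them members. The title of PBS 5 also holds a library name numbered 6, which would put it with DT 6, and that block was not run. The log2 difference of Krt8 was -0.07 with weights per mouse, -0.25 with the block and -0.34 to -0.03 with 1 mouse left out. Of the pathway genes 2 passed with weights per mouse and 0 to 3 with 1 mouse left out. The number of correlated pairs was 2 to 3 under other pseudocounts, scalings and deviations from group means, and 0 to 3 with 1 mouse left out.

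Signs of small differences were not fixed, and the cause was not tested. With 1 mouse left out, the log2 difference ranged from -0.45 to 0.038 for Odam, -0.16 to 0.075 for Krt7, -0.057 to 0.31 for Krt19, -0.15 to 0.012 for Krt23, -0.39 to 0.041 for BC037156, -0.20 to 0.11 for Fam20c, -0.22 to 0.28 for Ggt1, -0.46 to 0.040 for Odaph, -0.41 to 0.23 for U90926, -0.44 to 0.055 for Cd207, -0.035 to 0.10 for Col17a1 and -0.0017 to 0.13 for Dsp. It was 0.079 for Fam20c, 0.16 for Ggt1 and 0.16 for U90926 with weights per mouse, and 0.00022 and 0.0033 for Ggt1 with a pseudocount of 5 and TMM scaling. The r of Odam ranged from -0.35 to 0.35 with Krt8, -0.056 to 0.43 with Krt18 and -0.16 to 0.62 with Krt19. The r of Krt23 ranged from -0.28 to 0.061 with Krt7 and -0.14 to 0.46 with Krt8. The r of Odam with its 5 most similar genes stayed between 0.951 and 0.995 with 1 mouse left out, a check added after seeing the data.

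The planned count tests with edgeR and DESeq2 were not made: whole reads could be recovered, but the table, which also holds marks for genes without a value, was handled as normalized values throughout. The SD expected from counting was near the SD within groups for Krt18 (0.24 and 0.27) and well below it for Krt8 (0.18 and 0.44) and Krt19 (0.23 and 0.52).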
